A study of Mus musculus with 2 samples.

Results

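Noradrenergic neurons of the mouse locus coeruleus were split by whether they held mRNA of Cartpt, which encodes the precursor of the CART (cocaine- and amphetamine-regulated transcript) peptides. A cell counted as noradrenergic where Dbh, Slc6a2, Slc18a2 and Th together reached at least 10 unique molecular identifiers (UMIs, single counted mRNA molecules) per 10000 and at least 2 of the 4 genes were detected. Of 3035 cells kept from 3100 deposited barcodes, 106 passed this gate: 41 were Cartpt-positive, with at least 1 Cartpt UMI, and 65 were Cartpt-negative, with none. The series text gives 2578 cells after the submitters' own filters. The members were therefore chosen on measured values, and neither Cartpt nor the gate genes were tested.

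All cells came from wild-type C57BL/6N mice with no treatment named; both sexes were used, at an age of 3 to 4 weeks. The cells were captured in droplet libraries, 2 in all, which carry the batch labels 1 and 2. Library 1 gave 12 gated cells (7 positive and 5 negative) of 295 kept, and library 2 gave 94 (34 positive and 60 negative) of 2740. How many mice stand behind a library, and whether they were pooled, is not given. The labels describe dissociated, methanol-fixed cells as well as sorted nuclei without tying a protocol to a library, so a nucleus is also called a cell here. The 2 libraries shared 0 barcodes.

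The locus coeruleus is a small nucleus of the dorsal pons and the main source of noradrenaline for the forebrain. Its neurons make noradrenaline with tyrosine hydroxylase (Th) and dopamine beta-hydroxylase (Dbh), load it into vesicles with the vesicular monoamine transporter (Slc18a2) and take it back up with the noradrenaline transporter (Slc6a2). They also store peptides in dense-core vesicles, of which galanin is the best known. CART is made as a longer precursor, is cut by prohormone convertases inside these vesicles and is released with other transmitters. Transcription of Cartpt is known to respond to cyclic AMP through factors of the CREB family, which bind a palindromic DNA element.

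Cartpt (ENSMUSG00000021647) spans chr13:99898489-99901091 on the minus strand of GRCm38 in the GENCODE M21 annotation. Among the 250 bases before its RefSeq transcription start, 1 full cyclic AMP response element, TGACGTCA, was found, from base 112 to base 105 before the start. In the GENCODE annotation it lies inside the gene span given above, not before it. The element is shown because it is the best-known link between Cartpt and CREB factors. The 30 bases around it, at chr13:99900777-99900806 on the minus strand of GRCm38.p6, are given from 5′ to 3′ from RefSeq, with the element in capitals:
Cartpt element: ccggcgggcatTGACGTCAaacggcagcgg
The element, which reads the same on both strands, was present in 508 of 32851 windows of this kind (1.55%). Its shorter site, TGACG on either strand, was present in 17.8% of windows, and each full element contains 2 overlapping matches to it. The windows of Cd63, Ctsl and Nnat, the genes called higher in Cartpt-positive cells below, held 0 full elements, and that of Cd63 held 2 short sites. A match describes the letters only.

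Cartpt was scarce in library 1 and well counted in library 2. In library 1 the 7 positive cells held 14 Cartpt UMIs, 1 to 3 per cell, which is 0.0779 to 0.374 per 10000 UMIs with a median of 0.192. In library 2 the 34 positive cells held 104 UMIs, 1 to 11 per cell, which is 0.68 to 8.66 per 10000 with a median of 2.2. The lowest value a positive cell can have is 1 UMI over its depth, so these ranges depend on depth; over all gated cells, positive and negative, the level was 14.2 CPM (a gene's share of all UMIs of the sum, on the usual CPM scale) in library 1 and 140 CPM in library 2. Of the 34 positive cells of library 2, 15 rested on a single UMI and 14 held at least 3. Of the 7 of library 1, 3 rested on a single UMI and 3 held 3. Summed over the positive cells, the level was 20.9 CPM in library 1 and 288 CPM in library 2.

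The share of gated cells with a Cartpt UMI was higher in the deeper library, and this order turned once depth was made equal. It was 58.3% in library 1 (7 of 12, exact binomial 95% interval 27.67 to 84.83%), at a median of 83596.5 UMIs per cell. It was 36.2% in library 2 (34 of 94, 26.51 to 46.73%), at a median of 6411.5 UMIs. After every cell was thinned to 4000 UMIs, 0 of 12 cells of library 1 and 26 of 69 cells of library 2 (37.7%) still had a Cartpt UMI, with 25 shallower cells of library 2 left out. At 2000 UMIs the shares were 0 of 12 and 20 of 74 (27.0%). A zero among 12 cells allows a share of up to 25.0%, taking 3 cells as the floor of a zero here and below. Free RNA was gauged from oligodendrocytes, chosen by 6 myelin genes, which should lack Cartpt. They had a UMI in 0 of 39 cells of library 1 (up to 7.69%, median 9819 UMIs) and in 2 of 575 cells of library 2 (0.35%, median 1621 UMIs). Among all kept cells outside the gate, 8 of 283 (2.83%) and 16 of 2646 (0.6%) held Cartpt.

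**Figure D1:**
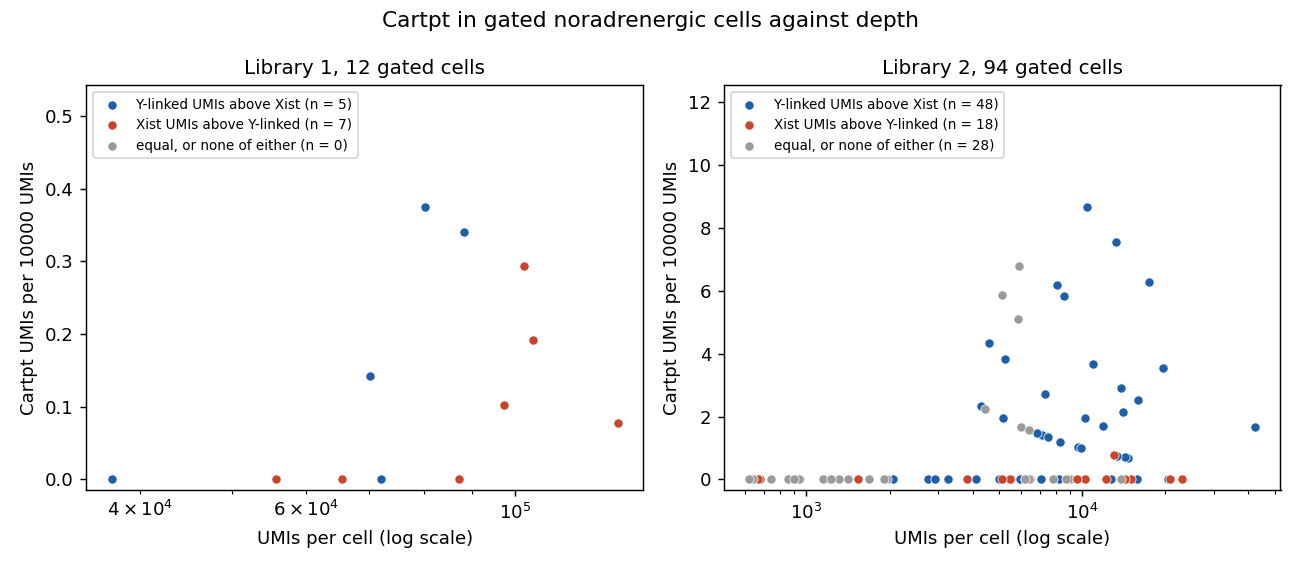
Cartpt UMIs per 10000 UMIs (vertical) against total UMIs per cell on a log scale (horizontal) for each gated cell, 1 panel per library, coloured by whether Y-linked or Xist UMIs were more numerous. In library 2 no positive cell lay under 4275 UMIs, and 1 of the 34 positive cells had more Xist than Y-linked UMIs.

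Positive cells were the deeper cells in both libraries, a property that the split itself favours. In library 1 the lowest, median and highest UMI counts were 70041, 97158 and 128440 in positive cells and 37288, 65496 and 87050 in negative cells. In library 2 they were 4275, 9114.5 and 42339 in positive cells and 619, 5439 and 22950 in negative cells. The medians differed by 1.48 and 1.68 times, while the ranges overlapped. Of the 60 negative cells of library 2, 25 had under 4000 UMIs, and no positive cell did. Just inside the gate lay cells at 10.1, 10.2 and 10.5 gate UMIs per 10000 in library 2, the first of them Cartpt-positive, and just outside lay cells at 9.11, 8.84 and 8.31. In library 1 the lowest gated cell had 43.1 and the highest ungated cell 7.2. The Cartpt boundary itself runs between 0 and 1 UMI.

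The gated cells carried the markers of noradrenergic neurons on both sides. The 10 markers outside the gate, among them Ddc, Phox2a, Gal, Maoa, Calcr and Hcrtr1, summed to 3130 CPM in positive and 2963 CPM in negative cells of library 1. In library 2 the sums were 1959 and 2216 CPM, against 146 and 141 CPM in the ungated cells of the 2 libraries. All 10 were detected in all 4 sums.

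Cartpt-positive cells of library 2 were mostly cells with Y-linked transcripts. Xist, the long RNA that coats the inactive X chromosome of female cells, was set against the sum of 4 Y-linked genes, Ddx3y, Uty, Eif2s3y and Kdm5d, in each cell. This was looked at after the data had been seen. In library 2, 27 of 34 positive cells (79.4%, 62.1 to 91.3%) had more Y-linked than Xist UMIs, 1 (2.94%, 0.07 to 15.33%) had more Xist, and 6 had equal numbers or none. Of the 60 negative cells, 21 (35.0%) had more Y-linked UMIs, 17 (28.3%, 17.45 to 41.44%) more Xist and 22 neither. Among the 34 negative cells at least as deep as the shallowest positive cell, these numbers were 16, 12 (35.3%) and 6. In ungated cells of that depth they were 142, 44 (17.4%) and 67 of 253.

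Read the other way, Cartpt was seen in 27 of the 48 gated cells of library 2 with more Y-linked UMIs (56.2%), at 185 CPM (exact Poisson interval 149 to 228, counting error only). It was seen in 1 of the 18 cells with more Xist (5.56%, 0.14 to 27.29%), as 1 UMI at 6.34 CPM (0.16 to 35.3). Thinned to 4000 UMIs, the counts were 21 of 44 cells (47.7%) and 0 of 13, which allows up to 23.1%. In library 1 the levels overlapped: 20.1 CPM (8.1 to 41.5) in 5 cells with more Y-linked UMIs and 10.9 CPM (4.4 to 22.5) in 7 cells with more Xist. Cells are not replicates, so these shares carry no test. The labels give neither sex nor animal for a cell, so sex, animal and Cartpt side cannot be told apart in library 2.

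**Figure D2:**
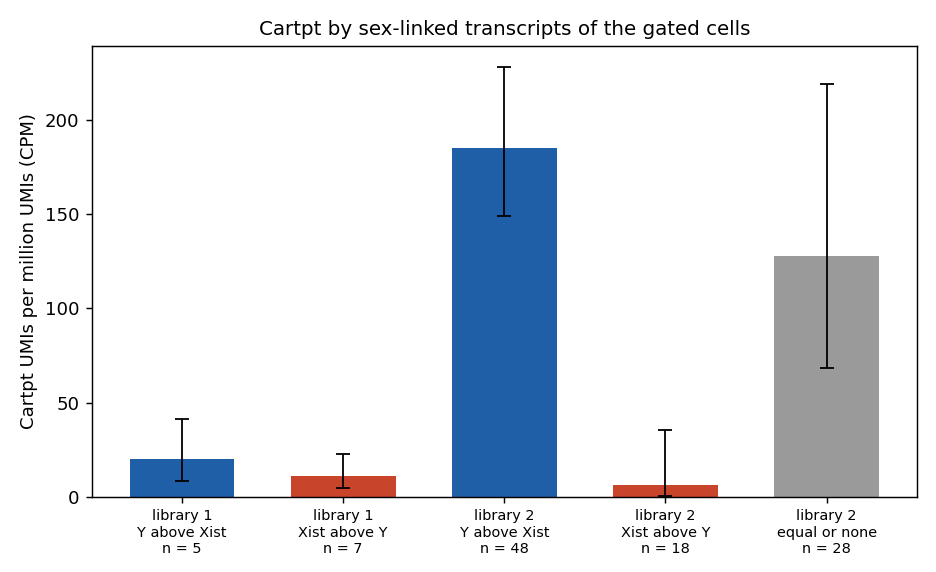
Cartpt level in CPM, summed over gated cells of each library with more Y-linked than Xist UMIs, more Xist, or neither; bars are levels, lines are exact 95% Poisson intervals for counting error, and n is the number of cells. In library 2 the level was 185 CPM in cells with more Y-linked UMIs and 6.34 CPM in cells with more Xist.

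To ask what else differed, UMIs were summed per side and library, and the 4 sums were compared with edgeR's quasi-likelihood test with the library as a block. Of 5961 genes tested, 11 (0.185%) were called at a Benjamini-Hochberg adjusted p under 0.05. Of these, 3 (0.0503%) were higher and 8 (0.134%) lower in Cartpt-positive cells, and all 11 had the same sign in both libraries. The median log2 fold over all genes was 0.02. At an unadjusted p under 0.05 there were 419 genes, 184 higher and 235 lower. DESeq2 on the same sums called 0 genes, with 28 at an unadjusted p under 0.05. The fit had 1 residual degree of freedom, so the spread was shared across genes and a gene could be called although its folds differed between the libraries. The block takes out differences in level between the libraries. The p-values therefore rest on how far the difference between the sides varied between the 2 libraries, taken over genes together. That spread may be technical.

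**Figure D3:**
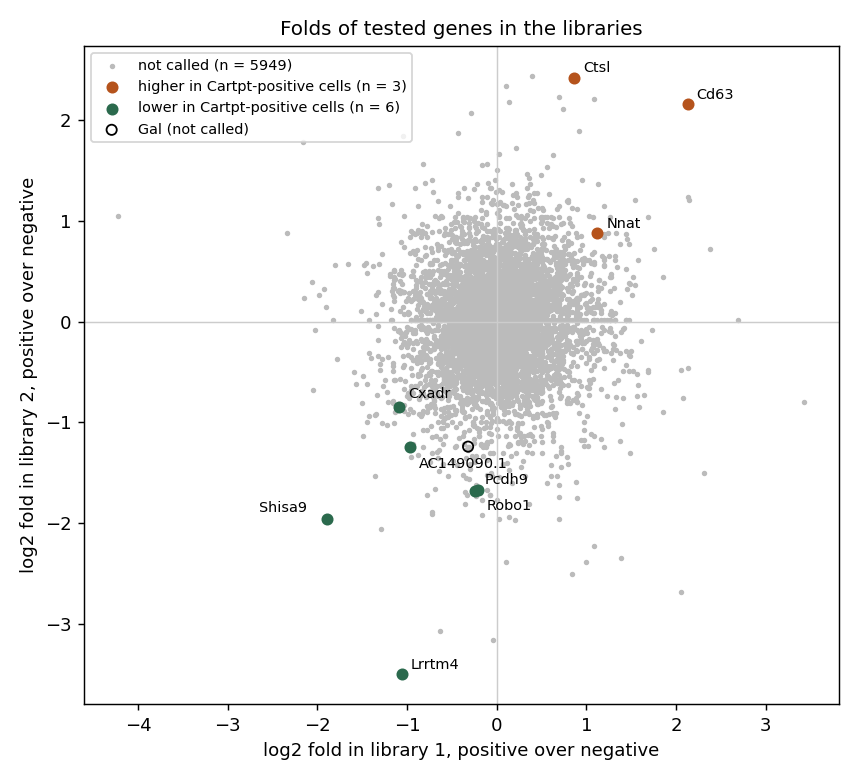
Log2 fold of Cartpt-positive over Cartpt-negative cells in library 1 (horizontal) and library 2 (vertical) for the genes tested, with 9 called genes in colour and named. Pcdh9 and Robo1 lie near 0 in library 1 and at -1.68 and -1.67 in library 2, and Gal, which was not called, is circled.

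The 3 genes called higher encode endolysosomal and membrane proteins. Cd63, a tetraspanin of late endosomes and secretory organelles (chr10:128900989-128912822, plus strand), stood at 29.8 CPM in positive and 3.15 CPM in negative cells of library 1, and at 77.5 and 13.0 CPM in library 2. Its UMIs came from 5 of 7 positive and 1 of 5 negative cells in library 1, and from 17 of 34 and 5 of 60 in library 2. The log2 fold was 2.63 ± 0.59 (SE; edgeR adjusted p = 0.00923), with 2.13 and 2.16 in the single libraries. Both positive sums were thus above both negative sums, although each negative sum rested on 5 or fewer UMIs.

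Ctsl, the lysosomal protease cathepsin L, which also cuts peptide precursors in secretory vesicles (chr13:64359337-64370890, minus strand), stood at 68.6 against 34.6 CPM in library 1 and 94.1 against 13.0 CPM in library 2. Its log2 fold was 1.72 ± 0.42 (edgeR adjusted p = 0.0317), with 0.86 and 2.42 in the single libraries. All 12 gated cells of library 1 held it, while in library 2 it was found in 18 of 34 positive and 3 of 60 negative cells. The difference was thus larger in library 2.

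Nnat, neuronatin, a small membrane protein of the endoplasmic reticulum from an imprinted gene (chr2:157560078-157562522, plus strand), stood at 169 against 72.4 CPM and 255 against 130 CPM. Its log2 fold was 1.01 ± 0.26 (edgeR adjusted p = 0.0481). In library 1, 59 of its 113 UMIs in positive cells came from 1 cell, without which the level was 80.6 CPM. Nnat lies within Blcap on the opposite strand, so its counts are uncertain if the counting did not use strand. Its level differed with sex-linked transcripts, in opposite directions in the libraries. In library 1 it stood at 69.0 CPM in the 5 cells with more Y-linked UMIs and 175 CPM in the 7 with more Xist. Those 7 held 112 Nnat UMIs, 59 of them in the single cell above, so much of this gap came from 1 cell. In library 2 Nnat had 6 UMIs in the 18 cells with more Xist. It had 120 UMIs in the 48 cells with more Y-linked UMIs (247 CPM). Among cells of both libraries with more Y-linked UMIs, the log2 fold between the Cartpt sides was 0.21.

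Oligodendrocyte transcripts were fewer in Cartpt-positive cells. The 7 markers Mag, Mog, Mobp, Cldn11, Ermn, Opalin and Mbp summed to 34 UMIs (50.7 CPM) in positive and 44 UMIs (139 CPM) in negative cells of library 1, and to 32 UMIs (88.5 CPM) and 134 UMIs (350.0 CPM) in library 2. In library 2, 9 negative cells and 0 positive cells had over 1% of their UMIs from markers of other classes, up to 4.17%. The deepest of the 9 had 6181 UMIs and the next 1965, while the shallowest positive cell of library 2 had 4275. Most of the 9 were thus shallower than any positive cell. With those 9 cells left out, 7 genes were called in all. Mbp, myelin basic protein, was tested and not called, with a log2 fold of -1.07 read from 43.3 against 69.3 CPM in library 1 and 66.4 against 162 CPM in library 2. In library 1, 12 of the 22 Mbp UMIs in negative cells came from 1 cell. Without the UMIs of the top cell on each side, the library 1 levels were 32.8 against 31.5 CPM.

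In cell adhesion and axon guidance, 3 genes fell. Lrrtm4, a postsynaptic organizer of excitatory synapses (chr6:80018877-80810143, plus strand), stood at 53.7 against 113 CPM in library 1 and 16.6 against 227 CPM in library 2. Its log2 fold was -2.14 ± 0.32 (edgeR adjusted p = 1.07e-07). In library 1 the same number of UMIs, 36, came from the 2 sides, and 1 cell gave 23 of them on each. In library 2, 5 of 34 positive and 17 of 60 negative cells held the gene. The library 2 values were therefore the farther apart.

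Pcdh9, a protocadherin (chr14:93013410-93890679, minus strand), stood at 732 against 834 CPM in library 1 and 371 against 1146 CPM in library 2. Robo1, a receptor for Slit guidance cues (chr16:72308306-73046095, plus strand), stood at 741 against 831 CPM and at 291 against 895 CPM. Their log2 folds were -0.93 ± 0.20 (edgeR adjusted p = 0.00486) and -0.90 ± 0.20 (0.00923). In library 1 alone they were -0.24 and -0.21, so library 2 carried both calls. Among cells with more Y-linked than Xist UMIs the folds were -0.12 and -0.25, both at an adjusted p of 0.993 and not called, with 0.52 and 0.86 in library 1. Without the 9 cells above, Pcdh9 was not called (-0.73, 0.0946) and Robo1 was (-0.91, 0.0103). All 3 genes are long. The genes lower at an unadjusted p under 0.05 had a median span of 89.2 kb, the higher ones 33.0 kb and all tested genes 45.2 kb, and the 194 genes of 500 kb or more had median log2 folds of -0.05 and -0.19 in libraries 1 and 2.

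A further 3 genes called lower differed by similar amounts in both libraries when all gated cells were compared. Cxadr, an adhesion protein of cell junctions also known as the coxsackievirus and adenovirus receptor (chr16:78301489-78359774, plus strand), stood at 101 against 214 CPM and 99.6 against 175 CPM, a log2 fold of -1.01 ± 0.26 (edgeR adjusted p = 0.0481). It overlaps Btg3 on the other strand. Among cells with more Y-linked UMIs its fold turned to 0.41 (1.08 in library 1), and without the 9 cells with over 1% of other-class markers it was not called (-1.03, 0.061). Shisa9, an auxiliary protein of AMPA receptors (chr16:11984113-12270902, plus strand), stood at 8.95 against 44.1 CPM and 5.53 against 33.9 CPM, a log2 fold of -2.42 ± 0.62 (0.0498), and 12 of its 14 UMIs in negative cells of library 1 came from 1 cell. AC149090.1, on the unplaced scaffold JH584304.1, stood at 104 against 202 CPM and 169 against 389 CPM, a log2 fold of -1.14 ± 0.23 (0.00256). Its sequence may be shared with near-identical copies, so its counts are uncertain.

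**Figure D4:**
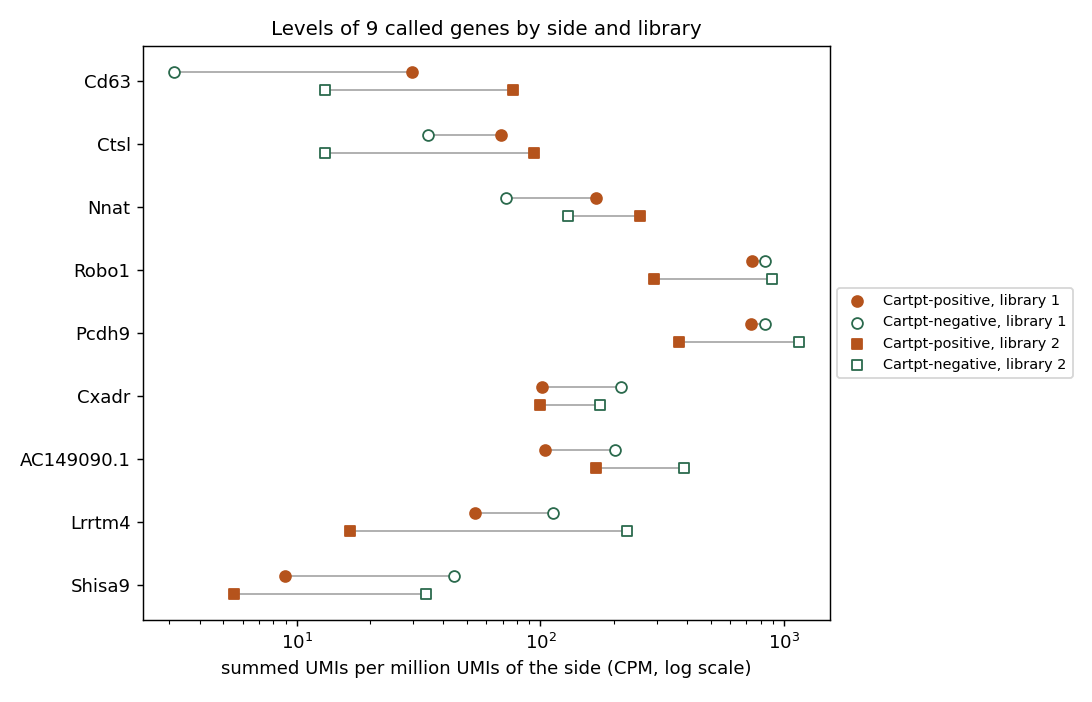
Levels of 9 called genes in CPM on a log scale, for Cartpt-positive (filled) and Cartpt-negative cells (open) of library 1 (circles) and library 2 (squares), joined by a line within each library. For Robo1 and Pcdh9 the symbols of library 1 nearly touch, at 741 and 831 CPM and at 732 and 834 CPM.

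The enzymes that make CART from its precursor were detected on both sides. Of 9 genes on the list of CART processing and a proposed receptor, 7 were tested, 1 (Ctsl) rose and 0 fell. Of all genes tested, 0.0503% rose and 0.134% fell. The median log2 fold of the list was 0.38, beside 0.02 for all genes. Pcsk1, a prohormone convertase of dense-core vesicles, stood at 70.1 against 31.5 CPM in library 1 and 66.4 against 57.4 CPM in library 2, with a log2 fold of 0.58 ± 0.36 (edgeR adjusted p = 0.838). Pcsk2, the convertase that acts later, had -0.05 ± 0.22, and its helper Scg5 had -0.06 ± 0.25. Cpe, the carboxypeptidase that trims the cut ends, stood at 257 against 296 CPM and 495 against 235 CPM, so its direction differed between the libraries. Pcsk1n, an inhibitor of Pcsk1, had -0.18 ± 0.20. Pam, which adds the terminal amide to many peptides, stood at 239 against 167 CPM and 562 against 243 CPM, with 0.84 ± 0.23 (edgeR adjusted p = 0.0778), and missed the threshold. When only cells as deep as the shallowest positive cell of their library were compared, a setting added after the data had been seen, Pam was called at 1.07 ± 0.25 (0.0131). Thinned to 4000 UMIs its fold was 0.51 ± 0.30 (0.798), with -0.31 in library 1.

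Pam also belongs to the 24 tested genes of granins and dense-core vesicles, of which 0 were called, with a median log2 fold of 0.13. Among them, Chgb had 0.14 ± 0.19, Chga 0.28 ± 0.26 and Scg2 0.47 ± 0.21. For Scg2, secretogranin II, library 1 gave 394 against 416 CPM and library 2 gave 653 against 295 CPM, and 89 of its 236 UMIs in positive cells of library 2 came from 1 cell. Vgf stood at 71.6 against 117 CPM and 147 against 54.8 CPM, opposite in the 2 libraries.

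Of 58 neuropeptide precursors, Cartpt included, 9 passed the low-count filter and were tested, 0 were called, and their median log2 fold was 0.22. Gal, which encodes galanin (chr19:3409915-3414544, minus strand), stood at 550 against 664 CPM in library 1 and 144 against 331 CPM in library 2. The log2 fold was -0.71 ± 0.21 (edgeR adjusted p = 0.163), with -0.32 and -1.24 in the libraries. Positive cells thus had the lower sum in both, without passing the test. In library 1, 1 cell gave 100 of the 211 Gal UMIs of negative cells, and 1 gave 110 of the 369 of positive cells. Without the UMIs of the top cell on each side the levels were 386 against 350 CPM, the other order. Every gated cell of library 1 held Gal, as did 21 of 34 positive and 30 of 60 negative cells of library 2. Thinned to 4000 UMIs, the latter became 16 of 34 (47.1%) and 22 of 35 (62.9%).

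The Gal result changed with the cells compared. In cells as deep as the shallowest positive cell, the log2 fold was -0.92 ± 0.23 (edgeR adjusted p = 0.0277), with 2 negative cells left in library 1. In the cells with more Y-linked than Xist UMIs, 3 positive and 2 negative in library 1 and 27 and 21 in library 2, it was -1.97 ± 0.29 (4.78e-08). There Gal stood at 172 against 979 CPM in library 1 and 140 against 346 CPM in library 2. In the cells of library 1 with more Xist the order was the other way, 759 CPM in 4 positive and 499 CPM in 3 negative cells. The comparisons by depth of the shallowest positive cell and by sex-linked UMIs were added after the data had been seen. Other depth settings did not call Gal. Thinned to 4000 UMIs, also added then, its fold was -0.73 ± 0.33 (edgeR adjusted p = 0.615), with 0.56 in library 1. Thinned to 2000 UMIs it was -1.16 ± 0.60, with -0.27 in library 1. In cells at or above the median UMIs it was -0.39 ± 0.35. There library 1, with 1 negative cell left, gave 0.63 and library 2 gave -1.39. Across library 2, Gal stood at 331 CPM in cells without Cartpt, 160 CPM in those with 1 Cartpt UMI and 135 CPM in those with at least 2, and the 7 of these with at least 5 held 24 Gal UMIs in all (200 CPM). In library 1 Gal stood at 664, 683 and 446 CPM in the first 3 of these sets, so it did not fall in steps.

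Calca, the precursor of calcitonin and CGRP, stood at 225 against 242 CPM and 47.0 against 112 CPM, with a log2 fold of -0.53 ± 0.25 (edgeR adjusted p = 0.632). Adcyap1, the PACAP precursor, had 0.29 ± 0.33, with 50.7 against 56.7 CPM and 113 against 67.9 CPM. Nucb2, the nesfatin precursor, had -0.02 ± 0.41. Of these 3 none was called.

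Several peptide precursors too scarce for the test were found in a larger share of positive than negative cells of library 2, and 4 are described here, chosen after their values were seen. Grp, gastrin-releasing peptide, had UMIs in 13 of 34 positive cells and 3 of 60 negative cells, and in 0 of 12 gated cells of library 1. Thinned to 4000 UMIs, library 2 gave 7 of 34 (20.6%) and 1 of 35 (2.86%). Uts2b, a urotensin-like peptide, was found in 14 of 34 and 4 of 60 cells, and in library 1 in 3 of 7 and 4 of 5, the opposite order. Thinned in the same way, Uts2b was found in 5 of 34 (14.7%) and 2 of 35 (5.71%) cells of library 2. Pdyn, prodynorphin, was found in 10 of 34 and 5 of 60 cells, at 71.9 and 15.7 CPM, and after thinning in 4 of 34 (11.8%) and 3 of 35 (8.57%). Of its 26 UMIs in positive cells of library 2, 1, 7 and 6 lay in the 3 cells with Crh described below. In library 1 its level had the opposite order, 11.9 against 18.9 CPM. In oligodendrocytes of library 2, Grp and Uts2b had 0 and Pdyn 1 of 575 cells with a UMI. Depth differed between the sides, and these counts have no test.

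Crh, corticotropin-releasing hormone, the marker of the neighbouring Barrington's nucleus, was found in 3 of 34 positive cells and 0 of 60 negative cells of library 2, as 1, 3 and 26 UMIs. The cell with 26 was the deepest gated cell of the library, with 42339 UMIs, and held 7 Cartpt, 56 Dbh, 46 Slc6a2, 170 Slc18a2 and 0 Slc17a6 UMIs. All 3 cells had 0 UMIs of Slc17a6, the glutamate transporter of Barrington neurons. Crh had 0 UMIs in the gated cells of library 1. Of the 7 cells with at least 5 Cartpt UMIs, all in library 2 and all with more Y-linked than Xist UMIs, 2 held Crh and 6 held Gal.

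**Figure D5:**
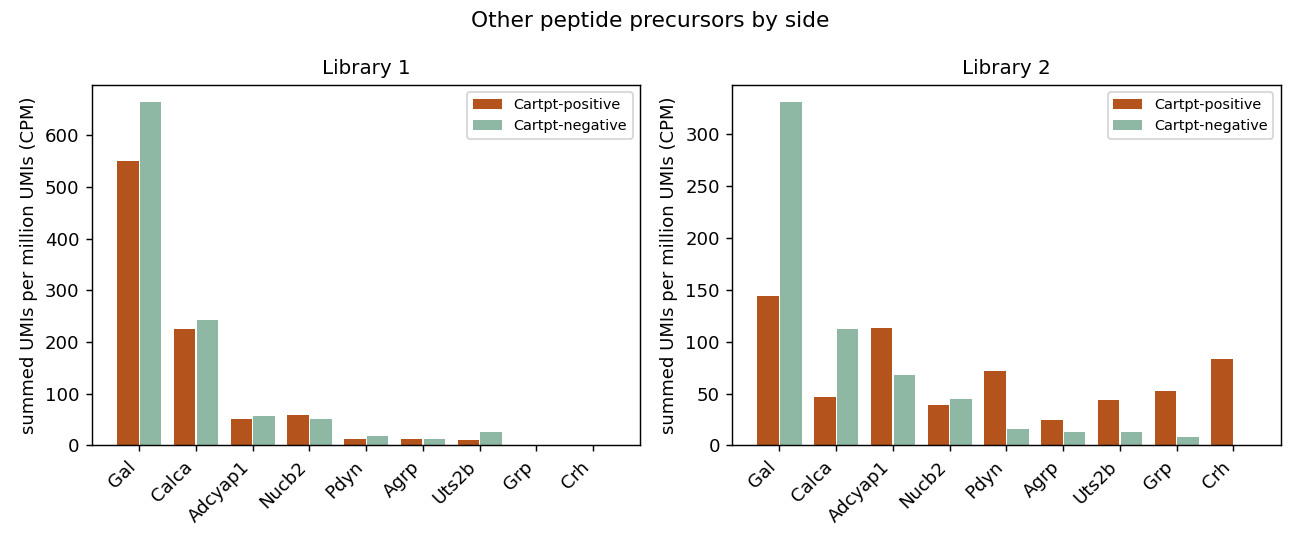
Levels of 9 other peptide precursors in CPM, in Cartpt-positive and Cartpt-negative gated cells of library 1 (left) and library 2 (right), with separate vertical scales. Gal was lower in positive cells of both libraries (550 against 664 CPM and 144 against 331 CPM), and Crh was present in positive cells of library 2 alone (83.0 CPM, 26 of 30 UMIs from 1 cell). For Gal, 100 of the 211 UMIs in negative cells of library 1 came from 1 cell.

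Of 68 neuropeptide receptors, 7 were tested and 0 called. Agtr1a, the angiotensin II receptor, stood at 32.8 against 12.6 CPM and 55.3 against 7.83 CPM, with a log2 fold of 2.02 ± 0.59 (edgeR adjusted p = 0.133). In library 2, 13 of its 20 UMIs in positive cells came from 1 cell. Hcrtr1, the orexin receptor through which hypothalamic neurons excite the locus coeruleus, stood at 92.5 against 113 CPM and 24.9 against 88.7 CPM, with -0.86 ± 0.32 (0.378). In the cells with more Y-linked UMIs it was called, at -2.05 ± 0.51 (0.0285). Calcr, the calcitonin receptor, had -0.23 ± 0.23, Oprm1, the mu opioid receptor, -0.11 ± 0.32 and Tacr1, the substance P receptor, 0.02 ± 0.35.

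Noradrenergic identity genes outside the gate did not pass the test. Of 28, 17 were tested, 0 were called, and the median log2 fold was 0.07. Gch1, which makes the cofactor of tyrosine hydroxylase, had 0.46 ± 0.31. Of the gate genes, given as levels because they chose the cells, Dbh stood at 1474 against 1316 CPM in library 1 and 1032 against 1185 CPM in library 2. Slc18a2 stood at 3966 against 3039 CPM and 2991 against 2422 CPM, and Th at 295 against 224 CPM and 213 against 175 CPM. Slc6a2 stood at 2976 against 2718 CPM in library 1 and at 1325 against 2586 CPM in library 2, the widest gap of the 4. Within library 2, Slc6a2 was 2016 CPM in cells with 1 Cartpt UMI and 933 CPM in those with at least 2. Within library 1 it did not fall in this way, at 3071 CPM with 1 Cartpt UMI and 2901 CPM with at least 2.

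The CREB-family regulators gave no call. Of 14, 12 were tested, with a median log2 fold of -0.04. Crtc1, a CREB coactivator, had -0.79 ± 0.44, Camk4, a kinase that activates CREB, -0.45 ± 0.28 and Prkacb, a catalytic subunit of protein kinase A, 0.32 ± 0.20. Of 20 tested genes of the immediate early and dissociation response, some of which are CREB targets, 0 were called, with a median of -0.06. Egr1 stood at 103 against 179 CPM and 105 against 191 CPM (log2 fold -0.88 ± 0.26, edgeR adjusted p = 0.133), and Fosb had -0.88 ± 0.27.

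The 13 protein-coding genes of the mitochondrial genome all had log2 folds below 0, with a median of -0.55. Of these, 10 had an unadjusted p under 0.05 and 0 were called, while of all genes tested 3.94% had such a p on the lower side and 48.3% had folds below 0. For mt-Co3, a subunit of complex IV, the fold was -0.66 ± 0.21 (edgeR adjusted p = 0.206). The share of mitochondrial UMIs, a sign of RNA quality, had medians of 3.5% in positive and 8.6% in negative cells of library 1, and 7.89% and 7.24% in library 2. The mt-Co3 fold ranged with the cells compared. It was -0.13 in cells as deep as the shallowest positive cell and -0.86 ± 0.42 thinned to 4000 UMIs, neither called. It was called at -0.62 ± 0.16 (0.0451) in cells with more Y-linked UMIs and at -0.64 ± 0.13 (0.00373) with no low-count filter.

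Axon guidance and adhesion held the 3 genes named above: of 49 tested, 0 rose and 3 fell, 37 had folds below 0, and the median was -0.16. Of all genes tested, 0.134% fell and 48.3% had folds below 0. The 42 tested pacemaker, potassium and calcium channels had 0 calls and a median of -0.07. Kcnip4, a partner of Kv4 potassium channels, stood at 1034 against 1505 CPM and 927 against 1315 CPM, with -0.58 ± 0.19 (edgeR adjusted p = 0.226). The 31 glutamate, GABA and glycine receptors had 0 calls and a median of 0.07. Gabrg3, a GABA-A subunit, had 1.15 ± 0.34 (0.14) and Grik4, a kainate receptor subunit, -0.70 ± 0.22 (0.206). There were likewise 0 calls among 15 hindbrain transcription factors (median -0.05), 19 neurofilament and axon growth genes (0.11), 12 growth factors and receptors (-0.19), 14 calcium buffers (0.1), 10 nuclear-retained RNAs (-0.09), 4 amine and acetylcholine receptors (-0.2) and 2 adrenergic receptors (0.32). Adra2a, the autoreceptor that slows these neurons, had 0.16 ± 0.43.

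Other genes near the threshold were Deptor, an inhibitor of mTOR (1.09 ± 0.29, edgeR adjusted p = 0.0778), and Scp2, a lipid transfer protein (1.57 ± 0.43, 0.0778). On the lower side were Ptch1, the Hedgehog receptor (-1.44 ± 0.38, 0.0652), and Gclc, which starts glutathione synthesis (-1.21 ± 0.32, 0.0715). In library 2 Gclc stood at 71.9 against 73.1 CPM, so its fold came from library 1.

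Most markers of other cell types were low on both sides. The 7 markers of mesencephalic trigeminal neurons were not, at 424 against 479 CPM and 531 against 449 CPM, beside 857 and 763 CPM in ungated cells. Ntrk3 and Whrn gave nearly all of these UMIs, Runx3 was at 0 and Pou4f1, Pvalb and Prph had 0 or 1 UMI in each sum. The microglial markers Csf1r, C1qa, C1qb, Tyrobp and Mrc1 were at 0 in all 4 sums. The 6 glutamatergic markers summed to 13.4 against 44.1 CPM in library 1 and 11.1 against 15.7 CPM in library 2, and the 6 GABAergic or glycinergic markers to 145 against 88.2 CPM and 60.9 against 88.7 CPM, with Slc32a1 at 0 in all 4 sums. The 4 Barrington markers, which include Crh, summed to 20.9 against 12.6 CPM and 88.5 against 36.5 CPM. In library 2 Crh gave 30 of the 32 UMIs in positive cells, and the other 3 markers had 2 UMIs in positive and 14 in negative cells. Markers of dopaminergic or adrenergic neurons summed to 9.45 to 26.1 CPM, with Foxa2 and Pitx3 at 0, and those of serotonergic neurons to 2.61 to 15.7 CPM, with Fev and Gata3 at 0. The 8 astrocyte markers summed to 110 against 56.7 CPM and 52.6 against 104 CPM, opposite in the libraries. Pan-neuronal markers ranged from 9676 to 11106 CPM. The part of these markers in the calls was not tested beyond leaving out the 9 cells above.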

How the data were processed

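Single cells or nuclei of the locus coeruleus were counted in 2 libraries. The deposited matrices hold counts, whole UMIs per gene and barcode without normalization; they came from Cell Ranger 6.1.2 per the file headers, while the submitters' processing notes list mm10 and GRCm38 as builds and Seurat and Cell Ranger 7.0 as tools. Whether introns or strand were used is not given in the sources used here. Gated cells held 987938 UMIs in library 1 and 744567 in library 2.

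The members and gene lists were chosen with earlier results of these data known. Barcodes needed 300 genes or more and no more than 20% mitochondrial UMIs; doublets stayed in, except in 1 alternative that removed the highest Scrublet scores (scanpy 1.11.5). Cartpt was removed and the 4 gate genes were kept in library sizes but not tested. Sums of UMIs were tested with edgeR 4.0.16 (R 4.3.3): TMM, filterByExpr, side plus library as a block, two-sided, Benjamini-Hochberg over 5961 genes. The library pairs the sums because both sides came from it. The SE is the log2 fold over the square root of F. A single library's fold is its difference in log2 CPM (prior count 2). DESeq2 1.42.0 was an alternative. The fit was checked on simulated sums drawn at its own dispersion. It called 98 of 98 genes set at a log2 fold of 2 in size, 34 of 95 set at 1 and 7 of 5916 unchanged genes. The simulation held no single cells, so it cannot show how calls respond to sums that rest on 1 cell. Named genes were the 10 per direction with the largest called fold, filled up by lowest p, the CART and peptide lists (at least 20 UMIs) and the 3 of lowest p in each other list; Crh, Grp and other cells' details were chosen after their values were seen. Intervals are exact at 95%, limits for zeros take 3 counts, and both cover counting error only. A test over random splits of the cells was not run. Of the called genes, 2 are not reported here.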

Additional observations from a re-analysis of the deposited data

How the results depend on the processing

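Both sides came from each library, so the fit had the library as a block; with no replicate block, 1 gene was called in place of 11. DESeq2 called 0. The count was 11 with DESeq2 size factors, all 11 shared, 16 without the low-count filter (8 shared), 8 with 3 of 4 gate genes, 9 without the highest doublet scores, 10 with at least 500 genes, and 7 without cells over 1% other-class markers. It was 2 (Lrrtm4 among them) with at least 2 Cartpt UMIs, 1 (not among the 11) with cells thinned to 2000 UMIs, when 720 genes could be tested, and 0 in cells at or above the median UMIs, where 1 negative cell of library 1 was left. Of settings added after the data were seen, cells as deep as the shallowest positive gave 14 (6 shared), thinning to 4000 UMIs gave 0 of 1707 tested, and cells with more Y-linked than Xist UMIs gave 12 (3 shared, Lrrtm4 and AC149090.1 among them), where Cxadr turned to 0.41. Lrrtm4 stayed called in 9 of 12 settings, and Cxadr and Nnat in 3 of 13. Thinning to 1000, 2000 and 4000 UMIs left a Cartpt share of 0.0% in library 1, and to 1000 left 7.14% in library 2. Leaving out a library leaves 1 sum per side and no test. Causes were not tested. After thinning, a Cartpt share under the 25.0% that 0 of 12 cells allows was not detectable in library 1.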
